A study of Mus musculus with 4 samples.

Results

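Cells rich in Dcn, Lum and Pdgfra, genes that fibroblasts are known for, were chosen by the counts of those genes from the CD45-negative fraction of MB49 tumours grown in male and female mice. A cell was taken when its library was 1 of the 2 CD45-negative libraries, when it carried at least 500 unique molecular identifiers (UMIs, 1 for each captured mRNA molecule) and at least 250 genes, and when at most 25% of its UMIs were mitochondrial. It also had to carry at least 5 UMIs of Dcn, Lum and Pdgfra together, less than 0.05% of its UMIs in the keratins Krt8 and Krt18, and no UMI of Ptprc, Pecam1 or Cdh5. Those limits took 127 of the 9401 kept CD45-negative cells, and of 19375 kept cells in the whole series. There were 66 male and 61 female cells, which is 1.20% (95% exact binomial interval 0.930% to 1.53%) of male and 1.56% (1.20% to 2.002%) of female CD45-negative cells. No cell of the 2 CD45-positive libraries met the same limits.

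The groups used here are CD45-negative cells sorted from MB49 tumour tissue of male mice and CD45-negative cells from MB49 tumour tissue of female mice, with 1 library each; CD45-positive cells of the same 2 kinds of tumour, also 1 library each, serve only as a background. MB49 is a transplantable bladder carcinoma line of male mouse origin, so that the tumour cells are of male origin in either host. The series set male beside female tumours to ask how immune cells bear on the sex difference in tumour growth, and each library was made on the BD Rhapsody microwell system after digestion with collagenases and dispase and a sort for live cells. The sources used here do not give the host strain, the age, the site of the tumours or the number of animals behind a library. With 1 library a sex there was no replicate and no test: every interval below covers counting error only, so that a difference between sexes cannot be told apart from a difference between 2 libraries or 2 sets of animals.

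Fibroblasts are mesenchymal cells that build and remodel the extracellular matrix. They secrete type I and type III collagen chains, coat the fibrils with small proteoglycans such as decorin (Dcn) and lumican (Lum), and answer to platelet-derived growth factor through Pdgfra. In tumours they are known to take up several programmes, among them a contractile, matrix-producing one, one rich in cytokines and complement, and one marked by Pi16 that resembles fibroblasts around vessels of healthy tissue.

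The type I collagen chain gene Col1a2, which was not part of the selection, split the 127 cells into groups with nothing between them. Col1a2 stood at 0 or 1 UMI in 61 cells and at 7 UMIs or more in 66 cells, and no cell held 2 to 4 UMIs. The 66 Col1a2-carrying cells numbered 17 in the male library, where Col1a2 ran from 7 over a median of 237 to 519 UMIs per cell, and 49 in the female library, where it ran from 16 over 189 to 730. The 61 Col1a2-poor cells numbered 49 male and 12 female cells. The split at 5 UMIs was chosen after these values were seen, and it is used below as a description. Col1a2-carrying cells made up 25.8% (15.8% to 38.0%) of selected male cells and 80.3% (68.2% to 89.4%) of selected female cells, so that the marker genes below fitted the label of tumour fibroblasts in most female and in few male selected cells.

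**Figure D1:**
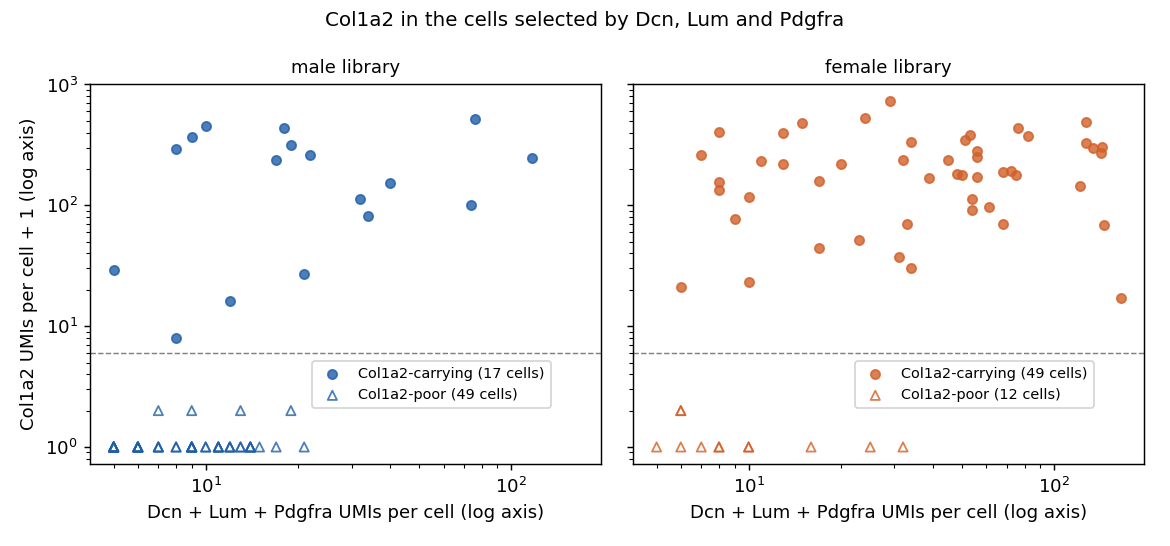
Col1a2 UMIs per cell plus 1 against the summed UMIs of Dcn, Lum and Pdgfra that chose the cells, both on log axes, for the male library (left) and the female library (right), 1 point a cell. Filled circles lie above the dashed line at 5 UMIs and open triangles lie at 0 or 1 UMI; 17 of 66 male cells and 49 of 61 female cells are above the line.

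The markers Lum and Dpt went with that split, while Dcn, Pdgfra and Col3a1 were found on both sides of it, so that the Col1a2-poor cells met the label in part. Lum is 1 of the genes that chose the cells, and its counts are a description. Lum had UMIs in 13 of 17 male and 45 of 49 female Col1a2-carrying cells, and in 0 of the 49 male and 0 of the 12 female Col1a2-poor cells. Dpt, which codes for dermatopontin, a small matrix protein that was not used in the selection, was found in 14 of 17 male and 44 of 49 female Col1a2-carrying cells, against 0 of 49 male and 1 of 12 female Col1a2-poor cells. Col3a1 had UMIs in all Col1a2-carrying cells and in 41 of 49 male and 7 of 12 female Col1a2-poor cells, at a median of 4 UMIs in male and 2.5 in female Col1a2-poor cells. In 37 of the selected cells all marker UMIs came from Dcn, and 36 of those were Col1a2-poor. Median depth was 8840 UMIs in male and 10107 in female Col1a2-carrying cells, against 8299 in male and 8426 in female Col1a2-poor cells.

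Dcn was not limited to the Col1a2-carrying cells or to the selected cells. Among cells with at least 0.05% of their UMIs in Krt8 and Krt18, Dcn was detected in 51.7% of 5058 male and 39.2% of 3607 female cells, at 157 and 90.1 counts per 1000000 UMIs (CPM), while Lum was detected in 0.316% and 0.943% of them and Dpt in 0.514% and 1.89%. The median depth of these cells was 10484 UMIs in male and 10937 in female. CD45-positive cells, with median depths of 5980 and 6047 UMIs, held Dcn at 11.1 and 11.9 CPM. Of the 1183 kept cells with 5 marker UMIs or more, 1056 were keratin-positive in this sense. Near the limits the same mix was seen: of the 34 male and 17 female selected cells with 0.03% to 0.05% keratin, 3 and 11 carried Col1a2, and of the 41 male and 14 female cells left out at 0.05% to 0.07%, 1 and 2 did. Of the cells with 5 or 6 marker UMIs, just inside that limit, 1 of 17 male and 1 of 5 female cells carried Col1a2, and of the cells with 3 or 4, just outside it, 2 of 23 male and 2 of 11 female cells did.

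The sex labels were set beside Xist and Ddx3y in the Col1a2-carrying cells. MB49 is of male origin, so Ddx3y cannot tell male host cells from tumour cells. Xist, the RNA that coats the inactive X chromosome in female cells, had 0 UMIs in male and 113 UMIs in 34 of 49 female Col1a2-carrying cells, a level of 220 CPM (181 to 264). The Y-linked helicase gene Ddx3y had 17 UMIs in 7 of 17 male Col1a2-carrying cells, 108 CPM (62.8 to 173), against 1 UMI in the female ones. Female Col1a2-poor cells differed from the female Col1a2-carrying ones: Xist was found in 2 of 12 cells, with 4 UMIs, and Ddx3y in 1 of 12, with 6 UMIs. Male Col1a2-poor cells held Ddx3y in 10 of 49 cells, so Y-linked expression was found in both male groups. The 2 female Col1a2-poor cells with Xist carried 25 and 16 Dcn UMIs and 1 Col1a1 UMI each. Keratin-positive cells free of marker UMIs, called carcinoma cells from here on (1856 male, 1594 female), held no Xist UMI in male and 0.469 CPM (0.189 to 0.966) in female.

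Whole profiles of the 2 groups stood at unlike distances from the keratin-positive cells. Read against the carcinoma cells of the same library, 333 of 1726 genes, 19.3%, were at least 2-fold higher in Col1a2-carrying cells in both libraries and 175, 10.1%, at least 2-fold lower. For Col1a2-poor cells the counts were 33 of 1730 genes, 1.91%, and 18 genes, 1.04%. Over the whole selection they were 152 of 1955 genes, 7.77%, and 81 genes, 4.14%. Across genes, log2 CPM of Col1a2-carrying cells correlated with that of carcinoma cells at Pearson's r of 0.209 for male and 0.212 for female cells, and that of Col1a2-poor cells at 0.872 and 0.794; these are descriptions over genes of the same libraries, which are not independent points. Since the selection itself set cells low in keratin and high in Dcn against the rest, none of these contrasts is a test of what the cells are.

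Among the carcinoma cells, chosen to hold no marker UMI, Dcn and Pdgfra were at 0 by construction. Of 7 measured fibroblast core genes 3 were at least 2-fold above carcinoma cells in Col1a2-poor cells in both libraries, those 2 and Col3a1. Keratin-positive cells with marker UMIs were left out of these carcinoma cells. Whether the genes below go with Dcn in keratin-positive cells was not tested. The Col1a2-poor cells had a short list of genes above the carcinoma level in both libraries. Behind Dcn stood Serpina3n, Pdgfrl and Col3a1. Col3a1 was at 910 against 257 CPM in male and 553 against 166 CPM in female cells, and Pdgfrl, which codes for a protein like the PDGF receptor, at 117 against 28.1 CPM and 174 against 32.0 CPM. Serpina3n, a secreted protease inhibitor, was at 332 against 44.6 CPM in carcinoma cells of the male library and 184 against 15.8 CPM in the female library. Vcam1, an adhesion molecule for leukocytes, stood at 1197 against 383 CPM in male and 1031 against 306 CPM in female cells. Inhba, which codes for the subunit of activin A, stood at 1992 against 464 CPM and at 1432 against 622 CPM, and the stem cell factor gene Kitl at 640 against 166 CPM and 347 against 119 CPM. Below the carcinoma level were the selected-against keratins and the cell cycle genes Birc5, at 108 against 602 CPM in male and 54.2 against 466 CPM in female cells, and Top2a, at 339 against 1001 CPM and 75.9 against 910 CPM. Col1a1 was detected in all 61 of these cells, at 6 to 163 UMIs in male (median 45) and 1 to 63 UMIs in female cells (median 18.5), while 4 male and 2 female cells carried a single Col1a2 UMI each.

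Col1a1 with little Col1a2 was measured in the carcinoma cells too. The 2 genes code for the chains that join in type I collagen, and in Col1a2-carrying cells their UMIs stood at a Col1a1 over Col1a2 ratio of 1.31 (1.26 to 1.37) for male and 1.40 (1.36 to 1.43) for female cells. In Col1a2-poor cells the ratio was 630 (246 to 2315) for male and 123 (33.7 to 1021) for female cells, on 4 and 2 Col1a2 UMIs. In carcinoma cells it was 357 (303 to 424) and 136 (121 to 153), with Col1a1 at 3045 CPM for male and 2602 CPM for female cells and Col1a2 at 8.52 and 19.2 CPM. Keratin-positive cells with at least 5 Col1a2 UMIs were rare, 5 of 5058 male and 9 of 3607 female cells.

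Promoters are shown for Col1a2, the gene that made the split, and for Col3a1, the type III chain gene that was high in Col1a2-carrying cells. Each runs from 250 bases before to 50 after the annotated RefSeq start on build GRCm38.p6, plus strand, 5′ to 3′, at chr6:4505368-4505667 for Col1a2 and chr1:45311288-45311587 for Col3a1. Capitals mark every match, on either strand, to CCAAT, to TATAAA and to GGGCGG; no 2 of these words overlap in the windows. The Col1a2 window held CCAAT 2 times and GGGCGG 2 times and the Col3a1 window held TATAAA 1 time, words present in 37.4%, 35.7% and 13.6% of the 32851 promoter windows of the same length. CG dinucleotides numbered 13 in the Col1a2 window and 0 in the Col3a1 window, with a median of 7 over all windows. For Col1a1 no entry was found in that table.
Col1a2: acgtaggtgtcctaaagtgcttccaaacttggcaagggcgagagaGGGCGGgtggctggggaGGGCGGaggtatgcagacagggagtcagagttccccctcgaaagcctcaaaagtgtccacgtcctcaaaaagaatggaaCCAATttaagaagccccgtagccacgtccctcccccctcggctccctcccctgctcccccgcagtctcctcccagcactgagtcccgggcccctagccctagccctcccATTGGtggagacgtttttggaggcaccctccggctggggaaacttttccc
Col3a1: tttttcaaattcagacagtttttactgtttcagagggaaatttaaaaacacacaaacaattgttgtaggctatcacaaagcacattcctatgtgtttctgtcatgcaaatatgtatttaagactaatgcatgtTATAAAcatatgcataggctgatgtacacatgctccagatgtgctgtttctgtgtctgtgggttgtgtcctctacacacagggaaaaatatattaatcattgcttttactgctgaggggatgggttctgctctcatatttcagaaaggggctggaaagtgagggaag

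The Col1a2-carrying cells were rich in mRNA of fibrillar collagen, of which the Col1a2 part was fixed by the split. Fibrillar and type V collagens took 80373 CPM in male and 79849 CPM in female cells, against 3635 and 3233 CPM in carcinoma cells. Col1a2 reached 23098 CPM in male and 20919 CPM in female cells. Col3a1 ran from 1 over a median of 177 to 548 UMIs per cell in male and from 8 over 221 to 676 in female cells, 19193 and 23517 CPM, against 257 and 166 CPM in carcinoma cells. Col5a2, which codes for a chain that nucleates fibrils, stood at 3778 and 3056 CPM against 4.97 and 3.48 CPM in carcinoma cells. All 6 measured collagens of that list, a measured gene being one with at least 20 UMIs over both libraries, were at least 2-fold above carcinoma cells in both libraries, where 16.1% of all measured genes were.

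Other matrix genes followed. Bgn, the proteoglycan biglycan, had 4722 CPM in male and 4592 CPM in female Col1a2-carrying cells against 11.01 and 14.4 CPM in carcinoma cells, and Postn, the matricellular protein periostin, 5762 and 4475 CPM against 2.07 and 3.62 CPM. All 7 measured small leucine-rich proteoglycans, among them Dcn and Lum, which the choice of the cells fixed, and 11 of 12 elastic fibre genes were above carcinoma cells by 2-fold in both libraries. Sparc, a collagen-binding glycoprotein, ran from 8 over 220 to 608 UMIs per male cell and from 11 over 203 to 653 per female cell, and carcinoma cells held it as well, at 2880 and 2424 CPM. Mmp2, a gelatinase that fibroblasts are known for, stood at 1185 and 1358 CPM against 1.66 and 2.08 CPM.

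Surface molecules showed the same contrast. Thy1 stood at 1547 CPM in male and 1026 CPM in female Col1a2-carrying cells against 7.57 and 2.55 CPM in carcinoma cells, and Cdh11, a mesenchymal cadherin, at 437 and 431 CPM against 0.178 and 0.536 CPM. Itgb1, the integrin beta chain shared by most collagen receptors, was at 1394 CPM in male and 1119 CPM in female Col1a2-carrying cells, at 495 and 509 CPM in CD45-positive cells, and at 3.31 and 1.47 CPM in carcinoma cells. Of the 61 Col1a2-poor cells 1 held an Itgb1 UMI. Hoxc8, Hoxc9, Hoxc10, Tbx15 and En1, transcription factor genes that mark body position, were all measured in Col1a2-carrying cells and at most at 0.268 CPM in carcinoma cells. En1 had 21 UMIs in 6 of 17 male and 21 UMIs in 16 of 49 female cells.

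**Figure D2:**
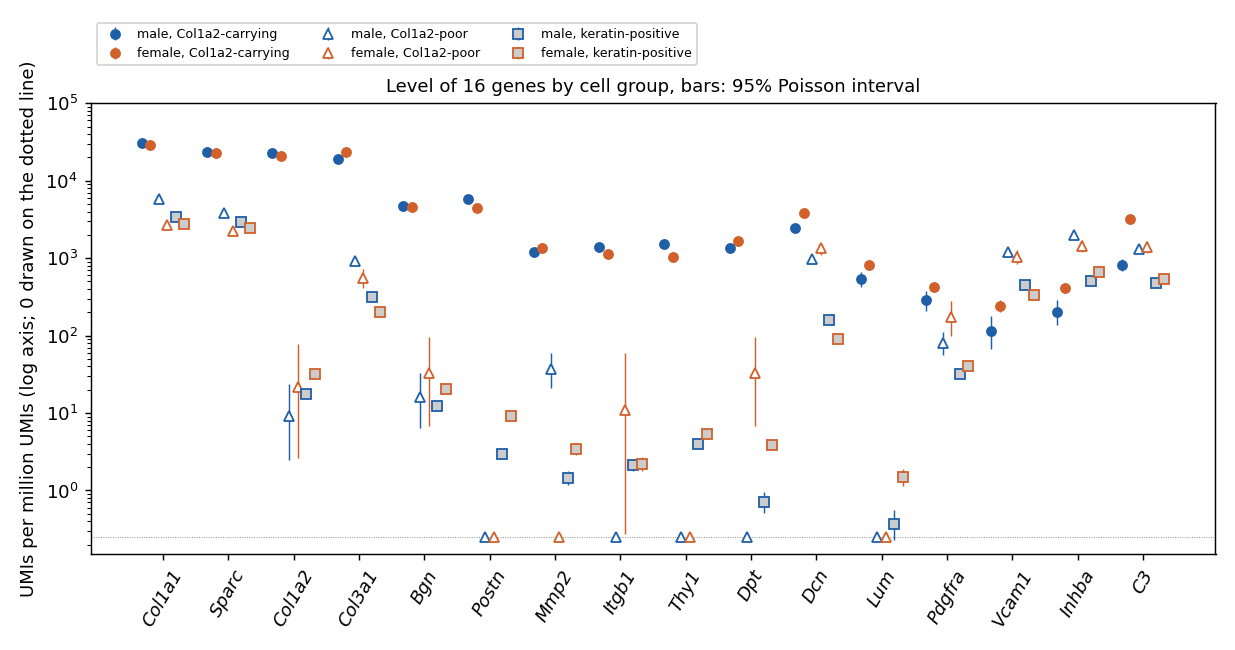
Level of 16 genes in CPM, on a log axis, in Col1a2-carrying cells (filled circles), Col1a2-poor cells (open triangles) and keratin-positive cells (grey squares), male in blue and left of female in orange; bars are 95% Poisson intervals of the counts. Col1a2, Bgn, Postn, Mmp2, Itgb1, Thy1, Dpt and Lum are above 500 in the circles alone, whereas Col1a1, Sparc and Dcn are found in all groups.

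Genes below the carcinoma level in Col1a2-carrying cells included those of the cell cycle and of hypoxia. All 7 measured cell cycle genes were at least 2-fold lower in both libraries, where 10.3% of all measured genes were; Top2a had 120 CPM in male and 87.4 CPM in female cells against 1001 and 910 CPM. Of 14 measured hypoxia and glycolysis genes 12 were lower, among them Ero1l, an oxidase of the endoplasmic reticulum, at 31.7 and 157 CPM against 891 and 1691 CPM. Markers of other cell types were low. Macrophage markers summed to 12.7 CPM in male and 27.2 CPM in female Col1a2-carrying cells against 21558 and 21927 CPM in the CD45-positive libraries, with 6 of 11 markers at 0. Endothelial markers summed to 38.0 and 33.0 CPM, against 20.6 and 14.7 CPM in carcinoma cells, with 6 of 11 at 0. Pericyte and smooth muscle markers summed to 203 and 103 CPM, against 220 and 105 CPM in carcinoma cells, with 5 of 12 at 0. Carcinoma markers summed to 228 and 334 CPM against 3892 and 4604 CPM, with 7 of 13 at 0. The selection required Pecam1 and Cdh5 at 0 and limited Krt8 and Krt18, so it fixed the endothelial and carcinoma sums in part.

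The male and female selections differ in their share of Col1a2-carrying cells, 25.8% in male against 80.3% in female, and a contrast over all selected cells holds that difference. Of 2078 genes with enough UMIs, 243 or 11.7% were at least 2-fold higher in all selected male cells, and 259 or 12.5% were at least 2-fold higher in all selected female cells; over all 6707 genes with at least 20 UMIs the shares were 14.9% and 9.23%. Among the 12 most male-leaning genes were Cp, the copper oxidase ceruloplasmin, at 3331 against 427 CPM in female cells, Ccl5 at 165 against 14.8 CPM, and H2-Aa at 386 against 47.8 CPM. Cp stood at 203 CPM in male and 155 CPM in female Col1a2-carrying cells and at 1970 and 1205 CPM in male and female carcinoma cells. Within Col1a2-carrying cells H2-Aa had 2 UMIs in male and 20 in female cells, and Ccl5 had 1 and 4. The contrasts that follow are within Col1a2-carrying cells.

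Col1a2-carrying cells were a smaller share of the male than of the female library, 0.309% (0.180% to 0.495%) of 5496 cells against 1.25% (0.930% to 1.66%) of 3905 cells, a male over female ratio of 0.247 (0.133 to 0.436). Counting every kept cell with at least 5 Col1a2 UMIs, whatever its other genes, gave 28 male and 67 female cells and a ratio of 0.297 (0.184 to 0.468). Those shares are of sorted cells, in which carcinoma cells are the bulk, and fewer fibroblasts cannot be told apart from more carcinoma cells or from a difference in dissociation. Col1a2-poor cells leaned the other way, with 0.892% (0.660% to 1.18%) of male and 0.307% (0.159% to 0.536%) of female cells.

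Most genes stood at like levels in male and female Col1a2-carrying cells. Of 1851 genes with enough UMIs 93, 5.02%, were at least 2-fold higher in male and 159, 8.59%, at least 2-fold higher in female cells, and 86.4% lay within 2-fold. Over all 4467 measured genes the shares were 8.13% and 11.2%, which are the background for the list counts that follow. The median keratin share of a cell was 0.00500% in male and 0.0166% in female Col1a2-carrying cells and the median mitochondrial share 2.71% and 3.38%; their part in the differences was not tested. The collagens were among the even ones: none of 6 fibrillar and type V collagens passed 2-fold, with Col1a1 at a male over female ratio of 1.04 (1.003 to 1.071), Col1a2 at 1.10 (1.06 to 1.15) and Col3a1 at 0.816 (0.784 to 0.849). None of 7 small proteoglycans passed 2-fold either, with Dcn at 0.657 (0.588 to 0.733) and Lum at 0.670 (0.524 to 0.848).

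Genes of the interferon response were higher in the female cells. Of 15 measured genes 10 were at least 2-fold higher in female Col1a2-carrying cells and none in male ones, with a median log2 of male over female of -1.73, where the median over all measured genes was 0.03. Iigp1, an interferon-induced GTPase that acts on vacuoles of intracellular pathogens, had 4 UMIs in 4 of 17 male cells, at most 1 UMI a cell, and 323 UMIs in 37 of 49 female cells, with a median of 4 and a maximum of 56. Bst2, known as tetherin, had 44.4 CPM in male and 237 CPM in female cells, Gbp2 101 and 359 CPM, and the transcription factor gene Irf1 114 and 373 CPM. Ifitm3 was the member with most UMIs and stood at 1509 and 1772 CPM, a ratio of 0.851 (0.735 to 0.983). Carcinoma cells of the same libraries leaned the same way, at a median log2 of -0.57 over 19 measured genes. No value over all genes of carcinoma cells was set beside this or the carcinoma medians below. Reads of Iigp1 and the Gbp genes may be split among near-identical family members, so their single values are uncertain.

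Genes of class I antigen presentation leaned the same way. Of 10 measured genes 5 were at least 2-fold higher in female cells, with H2-K1 at 887 CPM in male and 1922 CPM in female cells, H2-D1 at 1274 and 2837 CPM and the light chain gene B2m at 1794 and 2905 CPM. H2 genes are alike in sequence and their single values are uncertain. In carcinoma cells the list's median was -0.19 over 11 measured genes, against -0.97 in Col1a2-carrying cells.

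Among secreted signals, chemokines were the most uneven. Of 18 measured chemokines and cytokines 10 were at least 2-fold higher in female Col1a2-carrying cells and 1 in male ones. Cxcl9, an interferon-induced chemokine for T cells, had 1 UMI in 17 male cells and 596 UMIs in 31 of 49 female cells, from 0 over a median of 1 to 144 UMIs per cell; the male level was 0.00547 (0.000138 to 0.0306) of the female one. Carcinoma cells held Cxcl9 at 284 CPM in male and 272 CPM in female, a near-even level. Cxcl5, a neutrophil chemokine, had 0 UMIs in male and 250 UMIs in 14 female cells, at least 25.5-fold higher in female cells with the male count set to 3 UMIs, and 35.6% of the female UMIs came from 1 cell. Cxcl12, which holds cells that carry Cxcr4, had 146 CPM in 7 of 17 male and 571 CPM in 39 of 49 female cells. Cxcl14 went the other way at 2409 CPM in 6 of 17 male and 775 CPM in 27 of 49 female cells, a ratio of 3.11 (2.69 to 3.58), with 67.6% of the male UMIs in 1 cell. Ccl2 and Ccl7, which draw monocytes, were within 2-fold at ratios of 0.674 (0.578 to 0.783) and 1.22 (1.04 to 1.41).

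Complement genes were also higher in female cells, 4 of 9 measured by 2-fold, where 11.2% of all measured genes were. Masp1 was higher in male cells. C3, the central component, ran from 0 over a median of 2 to 39 UMIs in male and from 0 over 23 to 212 UMIs in female cells, 824 and 3177 CPM. C4b stood at 469 and 985 CPM and C1ra at 355 and 769 CPM, and Serping1, the inhibitor of the first complement proteases, at 1857 and 3690 CPM, a ratio of 0.503 (0.444 to 0.570) that lies just inside 2-fold. Acute-phase Saa3 had all of its 22 male UMIs in 1 cell and 954 UMIs in 26 of 49 female cells, and carcinoma cells held 3 male and 25 female UMIs; its reads can be shared with other Saa genes. Other genes far on the female side were Serpinb2 with 2 male and 357 female UMIs, Hmox1, the haem-degrading oxygenase, with 2 and 194, and Rarres2, which codes for the attractant chemerin, with 1 and 79. Hmox1 was also low in male carcinoma cells, at 41.2 CPM against 291 CPM in female ones.

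**Figure D3:**
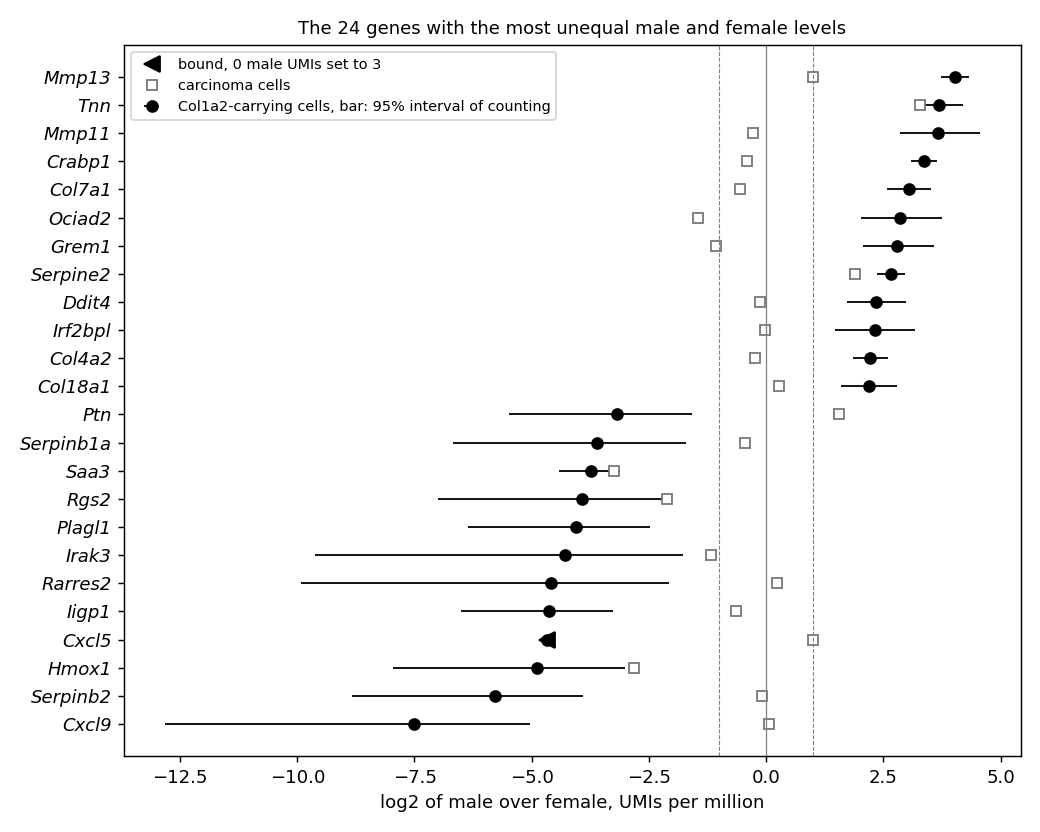
Log2 of male over female CPM for the 12 genes highest and the 12 genes lowest in that ratio among Col1a2-carrying cells (black, with 95% counting intervals; the triangle is a bound), and the same ratio in carcinoma cells (open squares, not drawn for Plagl1, which had no UMI in male carcinoma cells). Cxcl9 lies at -7.51 in Col1a2-carrying cells and at 0.06 in carcinoma cells, while Mmp13, Tnn, Serpine2, Hmox1, Irak3, Rgs2 and Saa3 are past 2-fold on the same side in both, with at most 3 UMIs in 1 or both sexes' carcinoma cells for Tnn, Irak3 and Saa3.

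Some matrix proteases and basement membrane genes were higher in male cells. Mmp13, a collagenase, had 536 UMIs in 6 of 17 male cells and 108 UMIs in 9 of 49 female cells, 3397 against 210 CPM, a ratio of 16.2 (13.1 to 20.1); 45.3% of the male and 54.6% of the female UMIs lay in 1 cell each. Carcinoma cells held Mmp13 at 87.7 CPM in male and 43.8 CPM in female. Mmp11, or stromelysin-3, had 393 CPM in 8 of 17 male and 31.1 CPM in 10 of 49 female cells. Of 13 matrix proteases 3 passed 2-fold on the male side, where 8.13% of all measured genes did, the third being Mmp10, which had 91.5% of its female UMIs in 1 cell. Mmp3 passed on the female side with 254 CPM in male and 1117 CPM in female cells. Of 8 measured basement membrane genes 3 were at least 2-fold higher in male cells and none in female ones. Col4a1, a chain of the type IV collagen network, ran from 0 over a median of 10 to 49 UMIs in male and from 0 over 2 to 21 UMIs in female cells, a ratio of 4.54 (3.67 to 5.63), and Col4a2 stood at 4.64 (3.59 to 6.02). Nid1 was even at 0.972 (0.825 to 1.14). In carcinoma cells the median log2 of 7 measured basement membrane genes was -0.12, against 0.74 in Col1a2-carrying cells.

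Further male-leaning genes were Crabp1, a retinoic acid carrier, Tnn, which codes for tenascin-N, Col7a1, the chain of anchoring fibrils, and Grem1, an antagonist of bone morphogenetic proteins. Crabp1 had 2814 CPM in 8 of 17 male cells and 274 CPM in 10 of 49 female cells. Tnn had 49.1% and Grem1 65.3% of its male UMIs in 1 cell, so those ratios rest on few cells. Serpine2, an inhibitor of plasminogen activators, had 1705 CPM in 11 of 17 male and 270 CPM in 18 of 49 female cells, and it was male-leaning in carcinoma cells as well, at 3.96 against 1.072 CPM. Pdgfrb stood at 139 and 52.5 CPM, a ratio of 2.66 (1.44 to 4.85), and was the gene of the 16 fibroblast core genes past 2-fold.

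Growth factors and their regulators went both ways. Of 16 measured growth factor genes of the stroma 3 were at least 2-fold higher in male and 6 in female cells. Over all measured genes the shares were 8.13% and 11.2%. Igfbp3, which binds insulin-like growth factors, had 856 CPM in male and 420 CPM in female cells, and Mdk, the growth factor midkine, 209 and 66.1 CPM. Vegfa, which drives vessel growth, had 120 CPM in male and 270 CPM in female cells. Igf1 was within 2-fold at 298 and 326 CPM. Of 8 measured Wnt and BMP regulators 2 passed 2-fold on each side. Wnt5a, a ligand of non-canonical Wnt signalling, had 27 UMIs in 8 of 17 male and 16 UMIs in 9 of 49 female cells, a ratio of 5.50 (2.86 to 10.9). Sfrp4, a secreted antagonist of Wnt ligands, had 15 UMIs in 3 male cells, 86.7% of them in 1 cell, and 274 UMIs in 30 female cells.

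The TGF-beta pathway, a known driver of matrix production, held 15 measured genes, with a median log2 of -0.66. Of these 1 was at least 2-fold higher in male and 2 in female cells, near the 8.13% and 11.2% of all measured genes. The receptor gene Tgfbr2 stood at 672 CPM in male and 999 CPM in female cells, a ratio of 0.673 (0.541 to 0.831). Smad7, an inhibitor that the pathway induces, passed 2-fold at 108 and 245 CPM, 0.440 (0.249 to 0.733). Of 14 mesenchymal transcription factor genes 3 passed 2-fold on the male side and 1 on the female side, beside the same shares of all measured genes. Twist2 stood at 342 and 163 CPM and Snai2 at 108 and 17.5 CPM, whereas Runx1 was near even at 355 and 348 CPM. Of 5 measured type VI collagen genes 1 passed 2-fold on the male side and 1 on the female side, beside the same shares. Their median log2 was 0.63, toward male. Col6a1 was within 2-fold at a ratio of 1.37 (1.27 to 1.49), while Col6a5 had 6 UMIs in 2 male and 117 UMIs in 22 female cells.

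**Figure D4:**
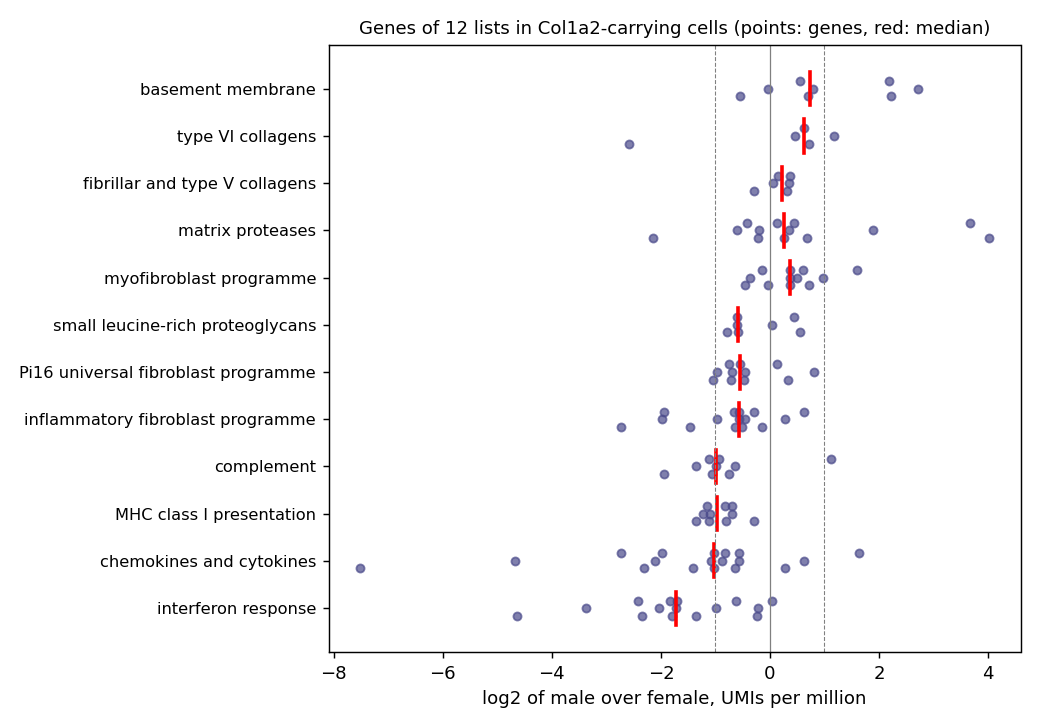
Log2 of male over female CPM in Col1a2-carrying cells for the measured genes of 12 lists, 1 point a gene and the median in red; dashed lines mark 2-fold, and genes with no male UMI are set to 3 UMIs. The interferon, chemokine, complement and class I lists have medians of -1.73, -1.03, -0.99 and -0.97, and the basement membrane list 0.74.

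Genes of several fibroblast programmes were found in each library. Genes of the myofibroblast list took 0 to 2.97% of UMIs in male Col1a2-carrying cells, with a median of 0.758%, and 0.0938% to 4.28% in female ones, with a median of 0.617%. Contractile genes were limited to a minority: Acta2, smooth muscle actin, was found in 6 of 17 male and 15 of 49 female cells, and Tagln in 1 and 8, whereas 4.08% of male and 8.33% of female Col1a2-poor cells held Acta2. Cthrc1, a collagen triple helix protein of activated fibroblasts, was found in 45 of 66 cells, every one of which held Postn. Of all 66 cells 61 held Postn. Of the 29 cells with Lrrc15, a surface protein of matrix-producing tumour fibroblasts, 27 held Cthrc1.

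Pi16 marked a larger group. It was found in 7 of 17 male and 33 of 49 female Col1a2-carrying cells, against 0.138% of male and 0.693% of female keratin-positive cells, whose median depth was 10484 and 10937 UMIs. After thinning each cell to 1500 UMIs, which left out 1 male and 2 female cells, Pi16 was found in 12.5% of male and 46.8% of female cells. All 24 cells with Dpp4, a peptidase that marks the same fibroblasts, held Pi16. High Acta2 and Pi16 lay in different cells. Of the 10 cells with 4 Acta2 UMIs or more, 9 held no Pi16 UMI and 1 held 1, and the highest Acta2 count was 114 UMIs. Of the 11 cells with 1 or 2 Acta2 UMIs, 8 held Pi16. So low an Acta2 count is near the background, since 2.79% of male and 4.35% of female keratin-positive cells held an Acta2 UMI; the limit of 4 UMIs was chosen after the counts were seen. Postn was found in 38 of the 40 Pi16 cells, and in 61 of all 66 Col1a2-carrying cells. The inflammatory list took a median of 1.03% of UMIs in male cells, from 0.0586% to 6.36%, and of 2.04% in female cells, from 0.0850% to 4.34%.

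**Figure D5:**
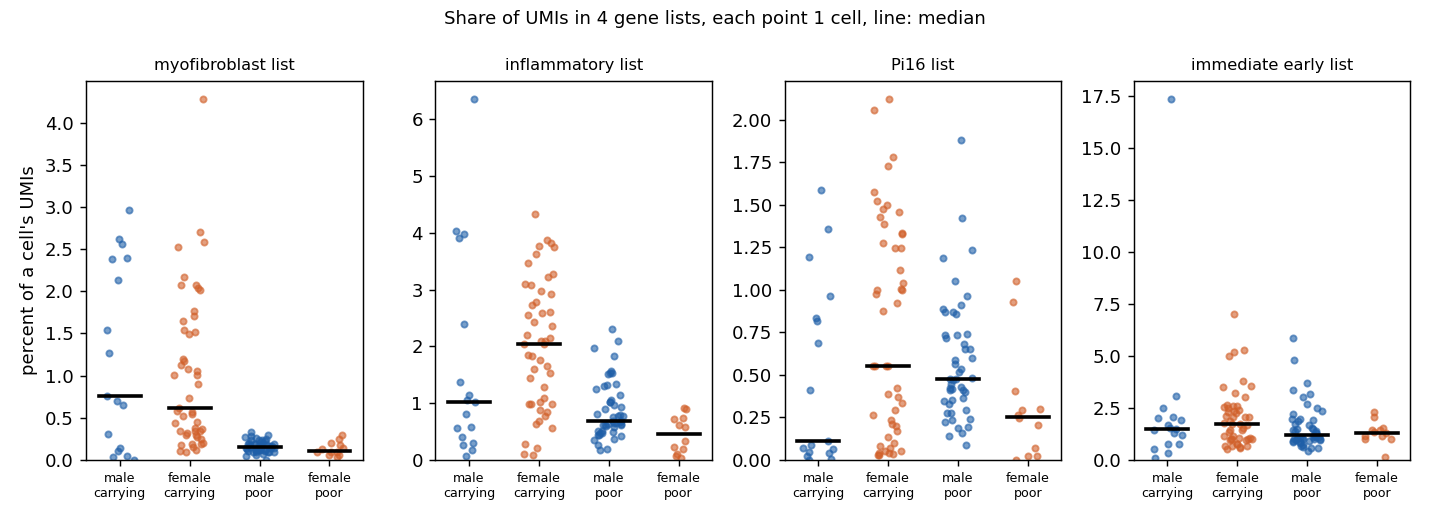
Share of each cell's UMIs in the myofibroblast, inflammatory, Pi16 and immediate early gene lists, 1 point a cell, with medians as black lines, for male and female Col1a2-carrying cells and male and female Col1a2-poor cells; each panel has its own axis from 0. The myofibroblast list stays at or below 0.335% in Col1a2-poor cells and reaches 2.97% in male and 4.28% in female Col1a2-carrying cells. The Pi16 list, whose members Ly6a and Ly6c1 are also found in carcinoma cells, has medians of 0.476% in male and 0.254% in female Col1a2-poor cells.

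Differences among cells were largest for a few secreted and immediate early genes. With 63 Col1a2-carrying cells thinned to 1500 UMIs, the variance over the mean was 26.3 for Mmp13, 19.4 for Fos, 14.0 for Col1a1, 11.99 for the metallothionein gene Mt1, 11.6 for Thbs4 and 11.5 for Saa3; counts that vary by sampling alone would give 1. Within male and female cells the values were 27.2 and 10.4 for Mmp13, 49.0 and 6.60 for Fos and 15.7 and 13.75 for Col1a1. For Mt1 they were 26.8 and 5.15, for Thbs4 17.2 and 6.39, and for Saa3 2 and 11.1. Thinned Fos reached 65 UMIs in the highest male cell, where the male median was 0.5, so the pooled values rest in part on few cells. Thinned Col1a1 counts ran from 8 to 84 UMIs in male and from 8 to 117 in female cells. Across the 63 cells Col1a1 went with Col1a2 at Pearson's r of 0.857, Jun with Fos at 0.683, Crabp1 with Mmp13 at 0.678 and Mt1 against Col1a1 at -0.45; cells of 1 library share their source, and these are descriptions. Immediate early and stress genes, which tissue dissociation is known to induce, took a median of 1.48% of UMIs in male and 1.73% in female Col1a2-carrying cells, and 17.4% in the highest male cell. Summed over cells they stood at 18452 CPM in male and 18568 CPM in female cells. Of these genes 5 of 16 were at least 2-fold higher in female cells, where 11.2% of all measured genes were. Among them was Nr4a1 at 349 and 915 CPM. The part of dissociation in the other differences between the libraries was not tested.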

How the data were processed

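Whole-transcriptome libraries were made on the BD Rhapsody system from sorted CD45-positive and CD45-negative cells of MB49 tumours, 1 library for each gate and sex, per the labels. The deposited matrices hold raw UMI counts per gene and cell. CASAVA 1.8, UMI-tools, Seurat and build mm10 are named in the submitters' processing notes; no aligner is named there or in the labels. The 4 libraries held 5152 to 6023 barcodes and 37705608 to 62273035 UMIs; cell names are serial numbers in every library, so shared barcodes could not be counted.

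Counts were summed over the cells of a group and divided by all UMIs of the group (CPM), with exact Poisson intervals, exact conditional intervals for ratios and Clopper-Pearson ones for shares, at 95%; they cover counting error alone. A gene missing from a library's gene list was taken as 0 UMIs, and a 0 in a ratio was set to 3 UMIs. Genes entered the male over female comparison with at least 50 UMIs in all, 100 CPM in the higher sex and UMIs in 20% of its cells, and entered list counts with 20 UMIs; past the threshold means 2-fold. With 1 library a sex no test was run. Named genes were the 12 highest and 12 lowest ratios, the 20 highest over carcinoma cells, the 15 most variable genes, and in each list the members with most UMIs and the largest and smallest ratios, from which a selection is given; Vegfa, Igf1, Tgfbr2, Smad7, Twist2, Runx1, Masp1, Ccl2, Ccl7, Nid1, Pdgfrb, Nr4a1, Itgb1, Cdh11, the body position genes and other genes outside that rule were chosen after their values were seen. The members and the gene lists were chosen with earlier results of these data known, and the split by Col1a2 after seeing the selected cells. No doublet caller was run: the limits on keratins, Ptprc, Pecam1 and Cdh5 act on mixed cells, and an alternative left out the top 5% of cells by UMIs. The ratio and its interval were tested on simulated Poisson counts with known folds, the kind of counts that the interval assumes. Spread among cells beyond sampling was not simulated. Promoters are from RefSeq, build GRCm38.p6. Python 3.11.15, numpy 2.4.6, scipy 1.17.1, pandas 2.3.3 and matplotlib 3.10.9 were used. Results on a few genes are not reported here.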

Additional observations from a re-analysis of the deposited data

Results flagged for a closer look

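For 4 of the 24 genes named in Col1a2-carrying cells, the male over female ratio was past 2-fold in the opposite direction in another group of cells; with 1 library a sex the difference between groups was not tested. Cxcl9 had a log2 of male over female of -7.51 in Col1a2-carrying cells and of 4.05 in Col1a2-poor cells, where 391 UMIs lay in 18 of 49 male cells and 5 UMIs in 4 of 12 female cells. Ptn, which codes for the growth factor pleiotrophin, had -3.18 in Col1a2-carrying cells, 2.51 in Col1a2-poor cells and 1.54 in carcinoma cells. Grem1 had 2.80 in Col1a2-carrying cells and -1.08 in carcinoma cells, and Ociad2 had 2.86 and -1.46. In carcinoma cells the male over female ratio had an interval of 0.383 to 0.582 for Grem1 and 0.127 to 0.923 for Ociad2. Both intervals reach inside 2-fold, and Ociad2 stood at only 0.414 CPM in male and 1.14 CPM in female carcinoma cells.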

How the results depend on the processing

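No paired analysis was possible because each sex has 1 library. The share of selected cells was 1.62% in male with 3 marker UMIs and 0.600% with 10, where the male over female ratio was 0.488. With no Krt8 or Krt18 UMI it was 0.255% in male and 0.359% in female, and below 0.1% keratin 3.62% and 2.56%, a ratio of 1.41, the reverse of the main 0.769. As a share of all barcodes it was 1.18% in female. Of the selected cells with 5 Col1a2 UMIs it was 0.309% in male, a ratio of 0.247, and of all kept cells with 5 Col1a2 UMIs 0.509%, a ratio of 0.297. Genes past 2-fold in the whole selection, male higher and female higher, were 243 and 259, against 43 and 43 with no keratin UMI, 997 and 619 with 20 UMIs as the one minimum, 572 and 398 at 1.5-fold, and 93 and 159 in Col1a2-carrying cells; below 0.1% keratin 96 were male higher. In Col1a2-carrying cells Ccl5 turned to -0.29 and H2-Aa to -1.62 in log2. Within Col1a2-carrying cells the counts were 288 and 294 after thinning to 1500 UMIs, 363 and 499 with 20 UMIs as the one minimum, 44 and 96 with 100 UMIs and 329 and 336 at 1.5-fold, and 264 were female higher without the top cell of each gene. Thinning set Rarres2 to 0.33, with 0 male UMIs at the bound of 3, and left no fold for Irak3. Genes above carcinoma cells in both libraries were 152, against 48 below 0.1% keratin, 85 at 4-fold and 333 in Col1a2-carrying cells. Those below were 81, against 52 with 3 marker UMIs, 22 with no keratin UMI, 17 below 0.1% keratin, 6 at 4-fold and 175 in Col1a2-carrying cells. With 157764 male and 514645 female UMIs in Col1a2-carrying cells, 3 UMIs stand for 19.02 and 5.83 CPM, which is the level that a count of 0 still allows. The settings within Col1a2-carrying cells, and those that use Col1a2, were added after the data were seen; over them 187 values of the 24 named genes stayed inside their counting interval, 27 left it and 1 reversed.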
